A study of Mus musculus with 7 samples.

Results

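The 5 genes described here are the interferon-induced CXC chemokine genes Cxcl9, Cxcl10 and Cxcl11 and a pair of other CXC chemokine genes, Cxcl14 and Cxcl16. They were chosen by gene symbol, as 5 of 48440 genes listed in the LPS experiment and 5 of 55352 genes listed in the AAV experiment, and all 5 were found in both. RNA-seq was performed on bone-marrow-derived macrophages (BMDMs), which are macrophages grown from mouse bone marrow with the growth factor M-CSF, here at 20 ng per mL. The cells came from wild-type C57BL/6 mice; the study used mice of both sexes aged 6 to 12 weeks. In the LPS experiment, BMDMs were left without treatment (0 h) or given 100 ng per mL LPS, a bacterial cell wall component, for 2 or 4 h, and each of the 3 time points is a single library. In the AAV experiment, BMDMs were transduced for 48 h with AAV-GFP or AAV-Shisa3, with 2 samples per group. Both vectors were AAV1 with a CAG promoter, which is active in most cell types, so all 4 samples carried a vector and there was no sample without one. Neither the labels nor the methods say whether the 2 samples of a group were separate cultures or mice, so the p-values measure only the spread between these samples, which may be technical.

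CXC chemokines are small secreted proteins that draw leukocytes along a concentration gradient. CXCL9, CXCL10 and CXCL11 share the receptor CXCR3, which is found on activated T cells and NK cells, and their genes are switched on through interferon receptors and JAK kinases, with NF-κB and interferon regulatory factors acting directly on Cxcl10 downstream of Toll-like receptors. CXCL16 is made as a membrane-anchored protein that ADAM10 and ADAM17 can release, and it binds CXCR6, while CXCL14 is a constitutively made chemokine of epithelia and other tissues that is not a classical interferon target.

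The genes of the 3 CXCR3 ligands lie next to each other on the minus strand of mouse chromosome 5 (GENCODE M21, build GRCm38). Cxcl9 (ENSMUSG00000029417.9) lies at chr5:92321347-92328079, Cxcl10 (ENSMUSG00000034855.13) at chr5:92346638-92348889 and Cxcl11 (ENSMUSG00000060183.6) at chr5:92359544-92365485, with 18558 bases between Cxcl9 and Cxcl10 and 10654 between Cxcl10 and Cxcl11. Cxcl11 carries the annotation polymorphic pseudogene, which marks a gene that is intact in some mouse strains and disrupted in others, so its reads give an RNA level and say nothing of a protein. Cxcl14 lies at chr13:56288643-56296551 and Cxcl16 at chr11:70453983-70459984, also on minus strands. The annotation places genes of the opposite strand across 3 of the 5: Art3 shares 133 exon bases with Cxcl10, Gm2673 shares 1582 with Cxcl11 and Zmynd15 shares 552 with Cxcl16. The strand setting of the counting is not given in the sources used here, so reads of these overlaps cannot be assigned to a strand.

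The bases upstream of Cxcl9, Cxcl10 and Cxcl14 are shown because the factors named above act on such sequence and because RefSeq windows (GRCm38.p6) were at hand for these 3 of the 5 genes. Each line gives 250 bases, 5′ to 3′ on the minus strand, that end at the base before the annotated start, at chr5:92328080-92328329 for Cxcl9, chr5:92348890-92349139 for Cxcl10 and chr13:56296552-56296801 for Cxcl14. Capitals mark matches to the searched motifs.
Cxcl9: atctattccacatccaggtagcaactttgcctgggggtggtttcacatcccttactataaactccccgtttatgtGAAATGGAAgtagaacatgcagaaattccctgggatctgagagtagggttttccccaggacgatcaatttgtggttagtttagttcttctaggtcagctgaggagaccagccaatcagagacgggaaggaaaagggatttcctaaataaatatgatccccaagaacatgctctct
Cxcl10: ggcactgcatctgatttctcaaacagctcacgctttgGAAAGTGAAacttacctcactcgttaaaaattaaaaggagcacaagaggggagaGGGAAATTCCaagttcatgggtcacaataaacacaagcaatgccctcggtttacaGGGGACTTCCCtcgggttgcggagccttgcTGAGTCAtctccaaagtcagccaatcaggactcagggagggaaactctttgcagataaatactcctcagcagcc
Cxcl14: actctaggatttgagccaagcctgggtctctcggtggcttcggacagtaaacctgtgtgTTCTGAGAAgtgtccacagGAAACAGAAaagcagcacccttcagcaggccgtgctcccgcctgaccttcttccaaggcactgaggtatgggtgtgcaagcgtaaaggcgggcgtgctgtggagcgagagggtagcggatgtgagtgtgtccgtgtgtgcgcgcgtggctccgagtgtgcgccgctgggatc

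Both strands of the window from 250 bases before to 50 bases after the start were searched for the interferon-stimulated response element core GAAANNGAA, the gamma-activated sequence TTCNNNGAA, the AP-1 site TGANTCA and the NF-κB consensus. The first was present in all 3 windows, as GAAATGGAA 175 to 167 bases upstream of Cxcl9, GAAAGTGAA 213 to 205 bases upstream of Cxcl10 and GAAACAGAA 172 to 164 bases upstream of Cxcl14. Of all 32851 mouse promoter windows of the same length, 8.56% held it. The NF-κB consensus, held by 8.46% of all windows, matched in Cxcl10 at GGGAAATTCC (159 to 150 bases upstream) and in a pair of overlapping matches, GGGGACTTCC and GGGACTTCCC, 104 to 94 bases upstream. AP-1 matches, in 7.81% of all windows, were TGAGTCA 74 to 68 bases upstream of Cxcl10 and TGACTCA 31 to 37 bases after the start of Cxcl9. The gamma-activated sequence, in 8.3% of all windows, matched only in Cxcl14, as TTCTGAGAA 191 to 183 bases upstream. A match describes letters in the window and is not evidence of a bound factor.

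**Figure D1:**
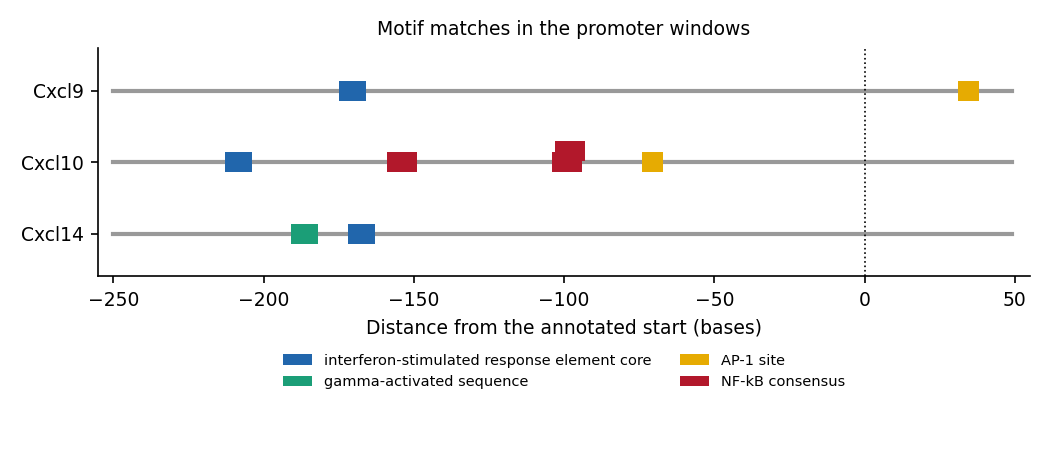
Positions of the motif matches in the windows of Cxcl9, Cxcl10 and Cxcl14, with the distance from the annotated start in bases on the x axis and 1 line per gene; coloured boxes are matches. Cxcl10 holds the 3 NF-κB matches, of which a pair overlap, and each gene holds 1 interferon-stimulated response element core.

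The labelled cell type was checked first. All 8 macrophage markers (such as Adgre1, Csf1r and Cd68) were present in every library, with a summed level of 34736 to 38318 TPM in the AAV samples. Of 7 T and NK cell markers, Cd3e and Ncr1 had no read in any LPS library and were listed at 0 in all 4 AAV samples. Cd4 had 197, 113 and 170 reads at 0, 2 and 4 h, Cd8a had 2, 0 and 12, and the others had at most 3 in a library. In the AAV samples the 7 markers together reached 5.88 to 10.6 TPM, and 10 neutrophil and granulocyte precursor markers reached 565 to 1092 TPM. Read totals were 15588502 in the 0 h library, 7263258 in the 2 h library and 32659392 in the 4 h library, and low genes were least precise in the shallow 2 h library. The depth of the AAV samples is unknown because TPM keeps no read number. In bulk RNA, fewer cells of a type and less RNA per cell cannot be told apart.

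The first question was how the chemokine genes responded to LPS. Cxcl9, Cxcl10, Cxcl11 and Cxcl16 were higher at 2 and 4 h than at 0 h, and Cxcl14 had too few reads to show a change. Cxcl10 was the most abundant of the 5 after LPS, and Cxcl9 was the only member that differed by more than 2-fold between 2 and 4 h. Single libraries give no replicate spread and no test: intervals are 95% Poisson intervals that cover counting error only, and a gene was counted as higher or lower when log2(value + 1) differed by at least 2-fold. The values are read counts that the authors divided by 1 factor per library.

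Cxcl10 had a value of 356 at 0 h (553 reads), 65071 at 2 h (29799 reads) and 65591 at 4 h (120702 reads). The values at 2 and 4 h were close, and no other times after LPS were sampled. The fold was 183 (168 to 199) at 2 h and 184 (170 to 201) at 4 h. The ratio of 4 h over 2 h was 1.01 (0.995 to 1.02), or 0.901 with reads scaled to library totals. At 2 h this 1 gene took 0.41% of all reads, and per length its level ranked 24 of 48058 genes, against 3055 at 0 h.

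Cxcl9 went from a value of 3.86 at 0 h (6 reads, interval 1.42 to 8.40) to 476 at 2 h (218 reads) and 1814 at 4 h (3338 reads). Its fold was 123 (55.8 to 340) at 2 h and 470 (216 to 1282) at 4 h. The later rise, 3.81-fold from 2 to 4 h (3.32 to 4.39), compares with 1.01 for Cxcl10, for which the interval of the same ratio ended at 1.02. The intervals leave out any spread between cultures, which single libraries do not measure.

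Cxcl11, the third CXCR3 ligand, had a value of 1.29 at 0 h (2 reads), 511 at 2 h (234 reads) and 615 at 4 h (1132 reads). Its ratio was 397 (109 to 3299) at 2 h and 478 (132 to 3953) at 4 h, intervals whose width comes from the 2 reads at 0 h. From 2 to 4 h it differed by 1.20-fold (1.04 to 1.39). The overlapping Gm2673 had at most 1 read in each library, and Art3, which spans both Cxcl10 and Cxcl11, had 3, 1 and 17 reads.

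Cxcl16 was already high at 0 h and moved least among the 4 genes that rose. Its value was 1773 at 0 h (2757 reads), 4913 at 2 h (2250 reads) and 4772 at 4 h (8782 reads), a fold of 2.77 (2.62 to 2.93) at 2 h and 2.69 (2.58 to 2.81) at 4 h. The overlapping Zmynd15 moved the same way, with values of 92.0, 273 and 230, and its part in the Cxcl16 reads was not tested. Cxcl14 had 19, 4 and 24 reads, for values of 12.2, 8.73 and 13.0. Its ratios of 0.715 (0.177 to 2.15) at 2 h and 1.07 (0.560 to 2.06) at 4 h have wide intervals, and a change within them was not detectable at this depth.

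**Figure D2:**
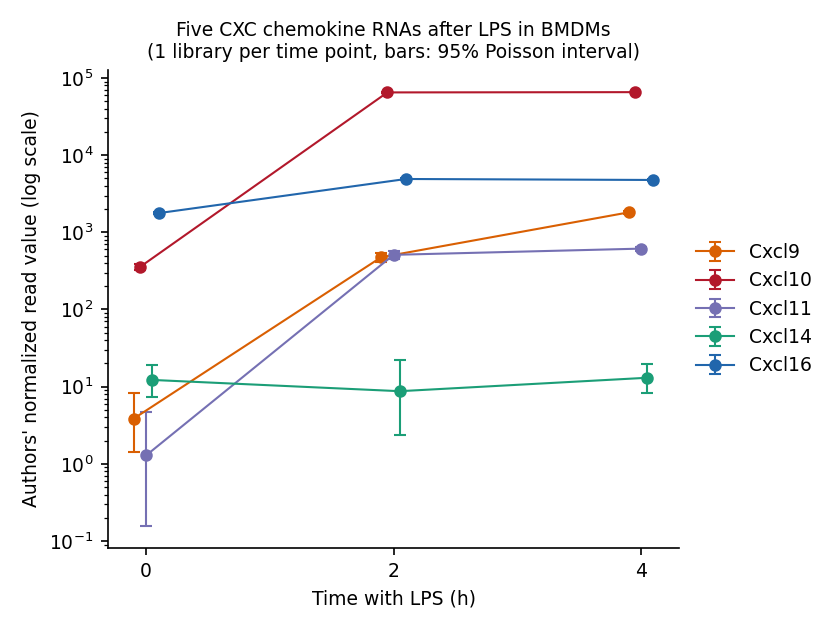
Values of the 5 genes (y axis, authors' normalized read value on a log scale) against hours with LPS (x axis); points are single libraries and bars are 95% Poisson intervals. Cxcl10 lies at 65071 at 2 h and 65591 at 4 h while Cxcl9 climbs from 476 to 1814, and Cxcl14 lies between 8.73 and 13.0.

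In counts, 4 of 5 members were higher and none lower at 2 h, where 20.5% of the 17854 genes tested were higher and 24.7% lower. At 4 h it was again 4 of 5, against 22.2% higher and 23.6% lower, and from 2 to 4 h 1 of 5 was higher (Cxcl9), against 17.9% higher and 15.2% lower. These figures depend on the scaling. With reads scaled to library totals the median of all genes moved by -0.66 at 2 h and -0.79 at 4 h on the log2 scale, higher calls fell from 45.4% to 24.6% of all calls at 2 h and from 48.5% to 22.4% at 4 h, and the folds at 2 h became 116 for Cxcl10, 78.0 for Cxcl9, 251 for Cxcl11 and 1.75 for Cxcl16, so that Cxcl16 no longer reached 2-fold. Cxcl14 became 0.452 at 2 h, past 2-fold lower on 4 and 19 reads, and 0.603 at 4 h. For Cxcl10, Cxcl9, Cxcl11 and Cxcl16 the folds at 4 h became 104, 266, 270 and 1.52. From 2 to 4 h higher calls went from 54.1% to 43.9% of all calls, and Cxcl9 still differed by 3.41-fold.

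The order of the 5 genes changed with LPS. Expressed as RPKM, computed from the recovered reads and the exon lengths, the 0 h levels were 58.5 for Cxcl16, 15.8 for Cxcl10, 0.667 for Cxcl14, 0.128 for Cxcl9 and 0.0338 for Cxcl11, the last pair with overlapping counting intervals. At 4 h the RPKM levels were 1641 for Cxcl10, 89.0 for Cxcl16, 33.9 for Cxcl9, 9.14 for Cxcl11 and 0.402 for Cxcl14. Cxcl10 passed Cxcl16: the ratio of their levels within a library was 0.269 (0.245 to 0.295) at 0 h, 17.8 (17.0 to 18.6) at 2 h and 18.4 (18.0 to 18.8) at 4 h.

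The second question was whether AAV-Shisa3 changed these genes in cells without LPS. Cxcl10 was 4.32-fold higher in AAV-Shisa3 than in AAV-GFP BMDMs, Cxcl14 2.23-fold and Cxcl16 1.28-fold, and all 3 passed the test. Cxcl9 and Cxcl11 averaged under 1 TPM and were not tested. Shisa3 itself, the transduced gene, was at 7.88 and 10.9 TPM in AAV-GFP and 12.3 and 17.8 TPM in AAV-Shisa3, which did not pass the test (log2 change 0.63, limma adjusted p = 0.138).

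Cxcl10 was at 177 and 192 TPM with AAV-GFP and at 941 and 654 TPM with AAV-Shisa3. The groups lay far apart, although the AAV-Shisa3 samples differed between themselves more than the AAV-GFP samples did. The change on the log2(TPM + 1) scale was 2.08 (SE 0.17, 95% interval 1.67 to 2.50; limma with Benjamini-Hochberg adjustment over all genes, adjusted p = 0.0142), which ranked 11 of 11218 genes tested by log2 change.

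Cxcl14 was at 4.24 and 3.43 TPM in AAV-GFP and 7.25 and 9.88 TPM in AAV-Shisa3, without overlap (log2 change 0.98, SE 0.19, limma adjusted p = 0.0428). The intervals of its LPS ratios included 1, and the experiments were not compared with each other by a test. Cxcl16 was at 269 and 260 TPM in AAV-GFP and 336 and 343 TPM in AAV-Shisa3, a small difference with little spread (log2 change 0.36, SE 0.068, limma adjusted p = 0.0410). Zmynd15, which overlaps Cxcl16, was at 18.5 and 18.1 TPM in AAV-GFP and 23.5 and 25.5 TPM in AAV-Shisa3 (limma adjusted p = 0.0692), and its part was not tested.

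Cxcl9 was at 0.58 and 0.51 TPM in AAV-GFP and 1.05 and 0.78 TPM in AAV-Shisa3, below the mean of 1 TPM required for the test. Cxcl11 was at 0.05 and 0.02 TPM in AAV-GFP and 0.05 and 0.27 TPM in AAV-Shisa3, and its groups overlapped. The Cxcl9 values of the groups did not overlap, at levels whose depth is unknown.

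**Figure D3:**
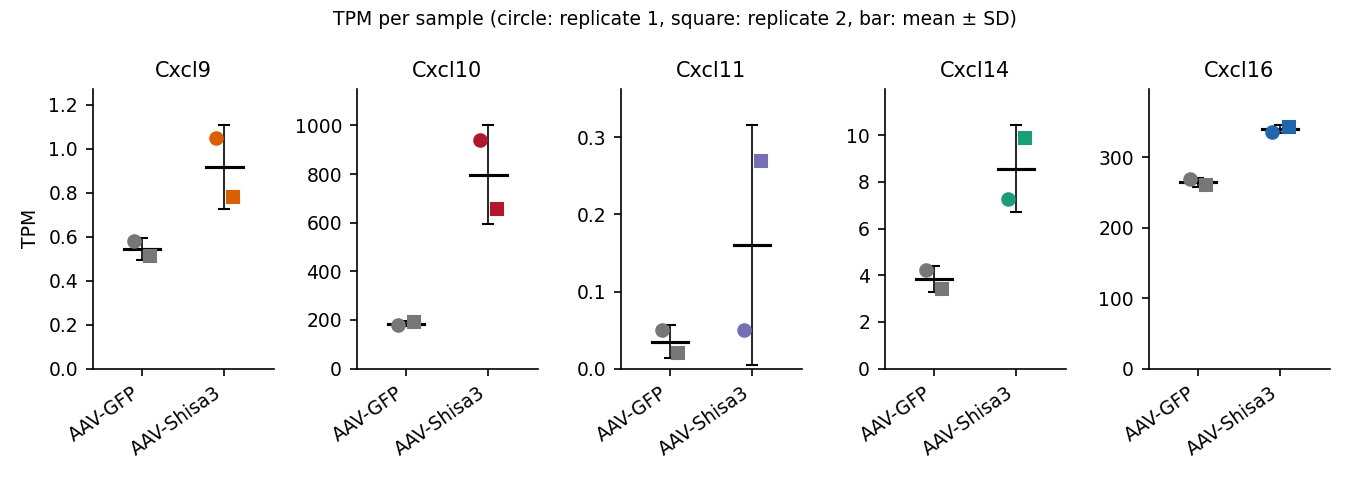
TPM of each gene (y axis, from 0, a separate scale per gene) in the AAV-GFP and AAV-Shisa3 samples; circles and squares are replicates 1 and 2, horizontal bars the mean and error bars the SD (n = 2). The AAV-Shisa3 points lie above the AAV-GFP points for Cxcl9, Cxcl10, Cxcl14 and Cxcl16, and the groups overlap for Cxcl11.

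Of the 5 members, 3 were tested, all above 1 TPM in every sample, and 3 were higher, where 2.23% of the 11218 genes tested were higher and 4.1% lower. For 3 of the 3 tested members the lower AAV-Shisa3 value still exceeded the higher AAV-GFP value, as it did for 18.2% of the genes tested; of the untested members it did so for Cxcl9 and not for Cxcl11. Over all genes, higher calls were 35.2% of calls and became 64.1% after median centring of the samples, where the 3 members were called too. The calls rest on the model: with limma without the trend none of the 3 passed (adjusted p = 0.0557 for Cxcl10, 0.0723 for Cxcl14 and 0.108 for Cxcl16), none passed without either AAV-GFP sample, and of the 3 only Cxcl10 passed without AAV-Shisa3 replicate 1 (0.0148) or replicate 2 (0.00661). Without an AAV-GFP sample limma called no gene of the table at all (with unadjusted p under 0.05, 620 were higher and 1723 were lower without replicate 1, and 768 and 1290 without replicate 2). A single gene tested on its own by an exact permutation test of 2 against 2 samples cannot go below p = 0.333.

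Within each sample Cxcl10 was set against Cxcl16 and Cxcl9. The ratio of Cxcl10 to Cxcl16 in TPM was 0.659 and 0.737 in AAV-GFP and 2.80 and 1.91 in AAV-Shisa3, so the order of the leading pair differed between the groups, as it did between 0 and 2 h of LPS. The ratio of Cxcl10 to Cxcl9 in TPM was 306 and 376 in AAV-GFP and 896 and 839 in AAV-Shisa3. Under LPS the ratio of these 2 genes per length was 123 (56.4 to 338) at 0 h, 183 (160 to 210) at 2 h and 48.4 (46.8 to 50.1) at 4 h. The AAV ratios divide by Cxcl9 levels of 0.51 to 1.05 TPM at unknown depth, and no test was made of them. The 2 tables were processed separately, so ratios are compared only within a table.

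**Figure D4:**
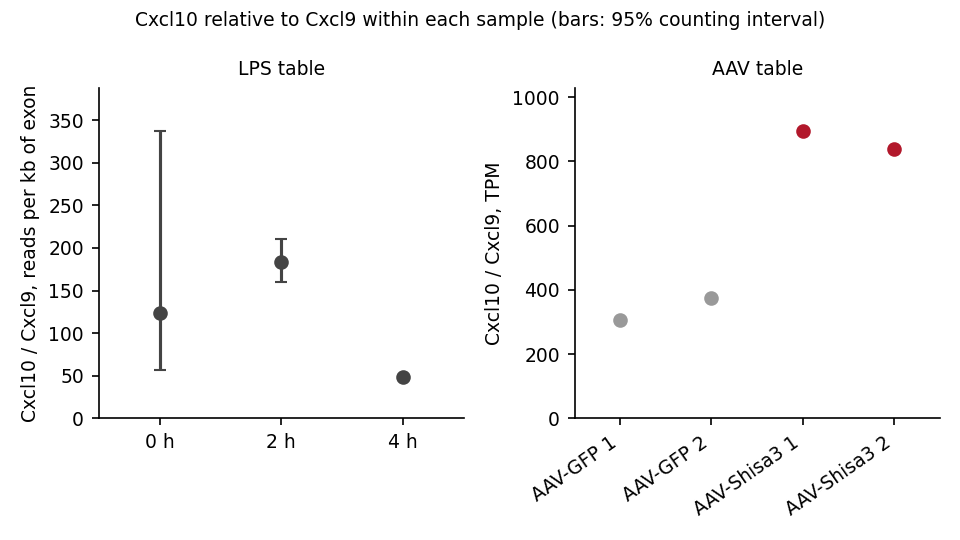
Level of Cxcl10 divided by that of Cxcl9 within each sample (y axes, from 0, per length, a separate scale per table) for the 3 LPS libraries on the left and the 4 AAV samples on the right; bars on the LPS libraries are 95% counting intervals. In the LPS panel the ratio is 123, 183 and 48.4, and in the AAV panel 306 and 376 with AAV-GFP and 896 and 839 with AAV-Shisa3.

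The members were then set beside other interferon-induced genes, a list of 30 such as the antiviral genes Ifit1, Rsad2 and Mx1 and the GTPase genes Gbp5 and Iigp1. The list was chosen with earlier results of these data known. At 4 h of LPS 30 of 30 were higher, against 22.2% of all genes, with a median log2 change of 5.04 against -0.04 over all genes. At 2 h it was also 30 of 30, against 20.5% of all genes, with a median of 3.88. From 2 to 4 h 16 of 30 were higher, as Cxcl9 was, and 1, the transcription factor gene Irf1, was lower, against 17.9% higher and 15.2% lower of all genes. In AAV-Shisa3 12 of 30 were higher and 0 lower by limma (17 and 2 at an unadjusted p under 0.05), against 2.23% higher and 4.1% lower of all 11218 genes (921 and 2216 genes at an unadjusted p under 0.05), with a median log2 change of 0.27 against -0.10 over all genes.

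Rsad2, which encodes the antiviral enzyme viperin, was at 252 and 244 TPM in AAV-GFP and 658 and 569 TPM in AAV-Shisa3 (log2 change 1.30, limma adjusted p = 0.0113). The GTPase gene Iigp1 was at 15.5 and 14.9 TPM against 41.4 and 35.2 TPM (log2 change 1.27, limma adjusted p = 0.0153). Isg15, a ubiquitin-like modifier strongly induced by type I interferon, did not pass, at 2023 and 1745 TPM against 1963 and 1698 TPM (log2 change -0.04, limma adjusted p = 0.834). Zbp1, a sensor of nucleic acids, had values of 396 and 369 TPM in AAV-GFP and 334 and 292 TPM in AAV-Shisa3 (limma adjusted p = 0.112). The largest log2 change in the list, 1.30, was smaller than that of Cxcl10. The 12 calls became 0 with limma without the trend or without either AAV-GFP sample, and 1 and 3 without AAV-Shisa3 replicate 1 and 2.

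**Figure D5:**
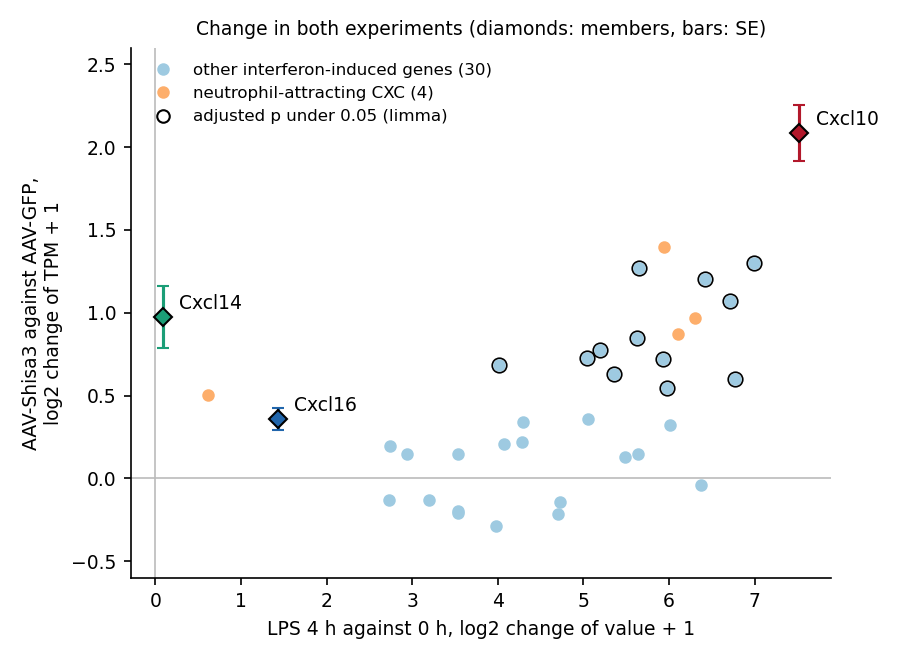
Log2 change of value + 1 at 4 h of LPS (x axis) against log2 change of TPM + 1 in AAV-Shisa3 against AAV-GFP (y axis) for the 3 tested members (diamonds, bars are SE), 30 other interferon-induced genes and 4 neutrophil-attracting CXC genes; black rings mark adjusted p under 0.05. Cxcl10 lies at the top right with 7.52 and 2.08, and Cxcl14 at the left with 0.09 and 0.98.

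The upstream pathway was measured with 24 genes for interferons, their receptors and signalling proteins, interferon regulatory factors and NF-κB, of which 23 were tested in each table. At 2 h of LPS 20 of 23 were higher and 0 lower, and at 4 h 20 were higher and 1, the interferon gamma receptor gene Ifngr1, lower. With library totals 13 were higher at 2 h and 12 at 4 h, while the interferon-induced list kept its count of 30 at both times. From 2 to 4 h 5 were lower (Ifnb1, Ifngr1, Irf1, Relb and Socs1). Ifnb1, the type I interferon made by macrophages after LPS, had 1 read at 0 h, 35 at 2 h and 38 at 4 h, for values of 0.643, 76.4 and 20.6.

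In AAV-Shisa3 2 of 23 were higher and 0 lower by limma (5 and 2 at an unadjusted p under 0.05), against the same 2.23% and 4.1% of all genes (921 and 2216 of 11218 unadjusted). These were Nfkb1, which encodes the p105 and p50 NF-κB proteins (120 and 143 TPM against 196 and 186 TPM, log2 change 0.54, limma adjusted p = 0.0418), and Socs1, a feedback inhibitor of JAK kinases (8.18 and 9.56 TPM against 16.2 and 16.7 TPM, log2 change 0.83, limma adjusted p = 0.0263). With limma without the trend, 1 of all 11218 genes was higher. The 2 lower at an unadjusted p under 0.05 were the NF-κB genes Rela and Nfkb2. Rela averaged 97.2 TPM in AAV-GFP and 82.3 TPM in AAV-Shisa3 (limma adjusted p = 0.140), and Nfkb2 77.8 and 65.7 TPM (limma adjusted p = 0.164). Ifnb1 was at 1.45 and 0.95 TPM in AAV-GFP and 1.51 and 0.99 TPM in AAV-Shisa3, with overlapping groups (limma adjusted p = 0.94). Ifng, the interferon of T and NK cells, had no read at 0 or 2 h of LPS, which allows up to 3 reads, had 1 read at 4 h, and was listed at 0 in all 4 AAV samples.

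The receptor genes Cxcr3 and Cxcr6 were low in these cells. Cxcr3 had 76, 17 and 15 reads at 0, 2 and 4 h and was at 0.15 to 0.41 TPM in the AAV samples, and Cxcr6 had at most 2 reads and 0.32 TPM. Of 8 receptor and processing genes, 3 were tested in the AAV table and 0 passed limma's threshold (Adam10 and Cxcr4 had an unadjusted p under 0.05). Adam10 (29.9 and 35.4 TPM in AAV-GFP, 41.5 and 41.2 TPM in AAV-Shisa3) and Adam17 (118 and 126 TPM, 137 and 138 TPM), whose products can release CXCL16, had limma adjusted p-values of 0.118 and 0.202. In LPS 1 (Cxcr6, on 2 reads) was higher and 1 (Cxcr4) lower of 6 tested at 2 h, and 2 were higher (Dpp4, whose product trims CXCR3 ligands, and Adam17) and 2 lower (Cxcr3 and Cxcr4) at 4 h. The all-gene shares at 2 h were 20.5% higher and 24.7% lower, and at 4 h 22.2% and 23.6%, so counts of 1 or 2 of 6 are near the background. Adam10 had ratios of 0.519 (0.463 to 0.580) at 2 h and 0.725 (0.683 to 0.770) at 4 h. With library totals 0 were higher at either time, with folds of 1.35 for Dpp4 and 1.41 for Adam17 at 4 h, and the ratios went down to 0.480 for Cxcr3 and 0.328 for Adam10 at 2 h and 0.410 for Adam10 at 4 h.

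Among other CXC chemokines, 3 of 5 tested genes of the neutrophil-attracting group were higher at 2 h of LPS, against 20.5% of all genes. At 4 h it was 4 of 5, against 22.2% of all genes, the fourth being Cxcl5 on 13 against 4 reads (fold 2.75, 0.848 to 11.6; 1.55 with library totals). Cxcl2 went from a value of 45.0 to 6822 at 2 h and 3629 at 4 h, and Cxcl1 from 2.57 to 839 and 246, so the ratio of 4 h to 2 h was under 1 for both, and past 2-fold lower for Cxcl1 and not for Cxcl2 (0.532, or 0.475 with library totals). Of the same group Cxcl3 was lower at 4 h than at 2 h (0.369) and Ppbp higher (2.43, 1.34 to 4.83). In AAV-Shisa3 0 of 4 tested passed limma's threshold, while 4 were higher at an unadjusted p under 0.05 (921 of all 11218 genes were) and did not overlap between the groups (18.2% of all genes lay above in this way). The count was 1 after median centring and 1 with at least 1 TPM in every sample. Cxcl2 was at 183 and 220 TPM against 307 and 506 TPM (log2 change 0.97, limma adjusted p = 0.0676), a log2 change close to the 0.98 of Cxcl14 with AAV-Shisa3 samples further apart. Of the remaining CXC genes Pf4, Cxcl12, Cxcl13 and Cxcl17, 2 were tested in each table. With LPS 2 were higher at 2 h (0 with library totals) and 0 at 4 h, against the same 20.5% and 22.2% of all genes. In AAV-Shisa3 0 were higher by limma (1, Pf4, at an unadjusted p under 0.05), against 2.23% of all genes.

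The genes whose pattern was most like that of a member were found by the distance over 3 log2 changes (2 h and 4 h of LPS against 0 h, and AAV-Shisa3 against AAV-GFP) among 10531 genes, from 7 libraries. Nearest to Cxcl10 were the feedback inhibitor gene Socs3, the cytokine gene Tnf and the GTPase gene Gbp5, at distances of 1.36, 1.51 and 1.52, and the nearest, Socs3, differed mainly in its AAV-Shisa3 change of 0.82 against 2.08. Nearest to Cxcl14 were Cd300lf, Tgfbr3l and Hmgn2 (0.36, 0.39 and 0.41). Nearest to Cxcl16 were Ccnl1, Clec4d and Pkmyt1 (0.071, 0.10 and 0.11).

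Markers of other cells moved with the groups in part. Among 10 neutrophil and granulocyte precursor markers, 8 were tested in the AAV table and 2 were higher (Camp and Ngp; 4 at an unadjusted p under 0.05, with Elane and Retnlg), with a summed level of 593 and 565 TPM in AAV-GFP and 1092 and 683 TPM in AAV-Shisa3. Of all 11218 genes tested, 2.23% were higher and 4.1% lower (921 and 2216 genes at an unadjusted p under 0.05). With limma without the trend, 1 of all these genes was higher. Of 8 macrophage markers 1 was higher, the LPS co-receptor gene Cd14 (at an unadjusted p under 0.05, Csf1r was higher too and Fcgr1 lower). Dendritic, fibroblast and endothelial markers summed to 2.70 to 4.53, 9.42 to 16.5 and 9.56 to 11.9 TPM, and 0 of the 1, 3 and 3 tested passed limma's threshold or an unadjusted p under 0.05. Of the T and NK cell markers 1, Cd4, was tested, at 5.76 and 7.13 TPM in AAV-GFP and 8.82 and 10.4 TPM in AAV-Shisa3 (unadjusted p = 0.0167, limma adjusted p = 0.105), and the 7 markers summed to 5.88 and 7.59 TPM against 9.13 and 10.6 TPM. In LPS the summed neutrophil marker value was 4761, 9988 and 7054, that of T and NK cells 130, 255 and 101, the dendritic 58.5, 159 and 311 and the endothelial 108, 332 and 1663, while the macrophage sum was 328403, 360175 and 326113. Single genes carried several of these sums. Lyz2 gave 242489, 224263 and 209164 of the macrophage sum, Cd4 127, 247 and 92.4 of the T and NK cell sum, Kdr 90.7, 275 and 1568 of the endothelial, and Ccr7 262 of the dendritic sum at 4 h. The part of these cells in the chemokine values was not tested.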

How the data were processed

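RNA-seq of BMDMs was analysed from 2 gene tables, with every sample grouped by its label. In the LPS table the authors deposited a signal per gene, found here to be read counts divided by 1 factor per library: 100% of values were whole multiples of 1 step per library (tolerance 0.01), which gave the reads. In the AAV table the values deposited by the authors were taken as TPM because every sample summed to nearly the same total, as TPM does; this unit was inferred. Reads were 150 bp, paired-end. Per the labels the build was mm9; aligner, counter and annotation are not given in the sources used here. Coordinates come from GENCODE M21 (GRCm38), in which 99.21% of LPS identifiers (without version) and 96.4% of AAV symbols were found.

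LPS folds were ratios of values with exact 95% counting intervals, for genes averaging 1 or more; no test was possible with 1 library per time point. AAV groups were compared with limma 3.58.1 (R 4.3.3; trended) on log2(TPM + 1), pseudocount 1, on the 11218 genes averaging 1 TPM or more, adjusted by Benjamini-Hochberg at 0.05; a fold on this scale understates changes of low genes. The script was tested on simulated data. Intervals cover counting error only and treat reads as independent. Reads are not independent molecules, so the intervals may be too narrow. The members and gene lists were chosen with earlier results of these data known. Named genes were all members, list genes past the AAV threshold or set beside the members, and the 3 genes nearest to each tested member; Isg15 and Zbp1 were named after their values were seen. Some genes of the lists are not reported here by name. Alternatives were other scalings (edgeR 4.0.16 for TMM), pseudocounts, filters, no trend, a replicate block and leaving out each replicate.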

Additional observations from a re-analysis of the deposited data

How the results depend on the processing

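The 3 members called in AAV-Shisa3 against AAV-GFP were also 3 with samples centred on their median, with at least 1 TPM in every sample and with pseudocounts of 0.1 or 5. The count was 0 with limma without the trend and 0 when all genes above 0 in any sample were tested, an alternative chosen after seeing the data, under which no gene was called by limma in either direction (at an unadjusted p under 0.05, 1118 were higher and 2411 were lower). Leaving out 1 replicate gave counts of 0 to 1; the lone sample is then assumed to vary like the other group. The cause was not tested. The direction held for Cxcl10 (log2 change 1.82 to 2.34), Cxcl14 (0.61 to 1.18) and Cxcl16 (0.33 to 0.48) in all 11 alternatives, with adjusted p of 0.00527 to 0.145, 0.0276 to 0.194 and 0.0296 to 0.198. The 12 interferon-induced genes called ranged from 0 to 14. Counts of members higher in LPS stayed within 1.5 times the value given, and Cxcl14 at 4 h (log2 change 0.09) ranged from -0.68 to 0.46. A fit with no filter was void, since 63.6% of genes had no spread between replicates, and DESeq2 was not run on TPM.

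With the replicate number as a block, 3 members were called, with adjusted p of 0.00915 for Cxcl10, 0.0389 for Cxcl14 and 0.0316 for Cxcl16, and calls over all genes went from 250 to 424 higher and from 460 to 851 lower. Same-numbered samples deviated together with a correlation of 0.188 over 11218 genes, but 2 pairs neither show nor exclude a pairing. The block moved the neutrophil-attracting CXC genes called from 0 to 4 and the remaining CXC genes from 0 to 1.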
